A study of Homo sapiens with 9 samples.

Results

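The TBC1D genes are named as a family of Rab GTPase-activating proteins, and the genes described here were all rows of the gene count table whose symbol is TBC1D followed by a number and at most one letter. This rule took 45 of the 28216 genes in the table and used no measured value. It leaves out TBC-domain genes with other names, 11 of which were read as a separate list. RNA was sequenced from 9 libraries in 3 groups of 3. PC3 cells, a prostate cancer line from a bone metastasis, were grown in F12K medium and left untreated. LNCaP cells (clone FCG), a prostate cancer line from a lymph node metastasis that responds to androgen, were kept in phenol red-free RPMI with charcoal-stripped serum and then given androgen at 10 nM or vehicle (0.01% ethanol) for 48 h. The androgen is DHT in the sample labels and R1881 in the text of the study, so it is called androgen here. Both lines are labelled wild type, and each group comes from 1 line. Line, medium, serum and treatment differ together between PC3 and LNCaP, and their parts cannot be told apart.

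Rab GTPases are small membrane switches that recruit the machinery for vesicle budding, transport and fusion while they hold GTP. A TBC domain can speed the hydrolysis of that GTP and so end the signal, and many TBC proteins act on 1 or a few Rabs at a given compartment. This does not hold for every member, since TBC1D23 lacks GAP activity and TBC1D27P is annotated as a pseudogene. TBC1D4, also named AS160, and its relative TBC1D1 are the best known members, since Akt and AMPK phosphorylate them to release the glucose transporter GLUT4 (SLC2A4) to the cell surface. Other members act on late endosomes, the Golgi, autophagosomes, recycling endosomes or the primary cilium.

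Upstream sequences are shown for TBC1D8 and TBC1D8B, the paralog pair whose balance differed most between the lines, for TBC1D1, which had the second largest increase with androgen among the members, and for TBC1D5 and TBC1D22A, whose windows hold the hexamer that makes up each arm of the androgen response element. Each is the 250 bases before a RefSeq transcript start (GRCh38.p14), written 5′ to 3′ on the strand of the gene. Capitals mark CG pairs in the first 3 windows, at chr2:101151383-101151632 (minus strand), chrX:106802423-106802672 (plus strand) and chr4:37890834-37891083 (plus strand). In the last 2 windows, at chr3:17740908-17741157 (minus strand) and chr22:46763492-46763741 (plus strand), capitals mark that hexamer, TGTTCT or its reverse complement AGAACA. No GENCODE exon overlaps any of the 5. The windows of TBC1D8, TBC1D5 and TBC1D22A lie inside the annotated gene, in introns, and those of TBC1D8B and TBC1D1 lie directly before it.
TBC1D8: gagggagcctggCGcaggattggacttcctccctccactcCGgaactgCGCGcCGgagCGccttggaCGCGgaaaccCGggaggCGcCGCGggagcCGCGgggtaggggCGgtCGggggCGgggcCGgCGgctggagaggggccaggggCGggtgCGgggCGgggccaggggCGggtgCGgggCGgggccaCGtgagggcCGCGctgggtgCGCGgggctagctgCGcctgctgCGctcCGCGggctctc
TBC1D8B: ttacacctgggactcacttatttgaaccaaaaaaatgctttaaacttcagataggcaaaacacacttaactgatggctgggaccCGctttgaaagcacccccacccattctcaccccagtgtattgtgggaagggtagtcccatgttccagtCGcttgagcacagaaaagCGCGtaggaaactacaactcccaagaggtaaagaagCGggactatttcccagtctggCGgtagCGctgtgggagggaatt
TBC1D1: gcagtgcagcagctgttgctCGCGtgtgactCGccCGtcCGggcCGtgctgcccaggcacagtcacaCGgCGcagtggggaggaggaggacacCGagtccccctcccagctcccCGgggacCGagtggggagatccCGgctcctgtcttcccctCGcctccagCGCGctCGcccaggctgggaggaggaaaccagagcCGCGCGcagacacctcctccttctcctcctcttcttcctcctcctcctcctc
TBC1D5: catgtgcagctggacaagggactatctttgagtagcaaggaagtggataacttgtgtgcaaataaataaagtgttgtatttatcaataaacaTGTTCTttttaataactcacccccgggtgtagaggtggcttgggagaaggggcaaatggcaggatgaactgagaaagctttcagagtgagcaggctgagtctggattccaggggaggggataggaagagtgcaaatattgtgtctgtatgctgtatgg
TBC1D22A: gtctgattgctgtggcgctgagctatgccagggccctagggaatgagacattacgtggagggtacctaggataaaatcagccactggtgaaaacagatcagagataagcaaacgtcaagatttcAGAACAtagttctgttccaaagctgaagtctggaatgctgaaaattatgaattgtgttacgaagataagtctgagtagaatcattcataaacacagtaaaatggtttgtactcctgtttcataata

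The TBC1D8 window held 34 CG pairs and 80.4% G or C, against 7 CG pairs and 48.8% in the TBC1D8B window. The TBC1D1 window shown held 19 CG pairs and is the richest of the 4 matched for that gene, of which the others held 5, 4 and 1. RefSeq promoters were matched for 35 members with 47 windows, leaving out any members' windows on chromosome 8, where TBC1D31 lies. Their median was 17 CG pairs, against 11 over all 35116 windows, from which chromosome 8 was not removed. The hexamer was found in 3 of the 47 windows (6.38%), in TBC1D5, TBC1D22A and TBC1D21, and in 12.4% of all windows. The full palindrome of AGAACA, 3 bases of any kind and TGTTCT, which reads the same on both strands, was found in 0 of the members' windows and 1 of all windows. A match is a description of the letters only. TBC1D5 and TBC1D22A each have 2 matched starts, and the hexamer is in only 1 of the 2 for each gene.

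The libraries held 17397706 to 25640325 counts on genes (median 21434125), and their markers matched the labelled lines. The LNCaP markers KLK3, KLK2, FOLH1 and TMPRSS2 summed to 7647 to 8264 CPM (reads scaled to library size) with androgen, 1979 to 2349 with vehicle and 23.9 to 39.7 in PC3. The PC3 markers VIM, CAV1, CAV2, AXL and ANXA1 summed to 2249 to 2318 CPM in PC3 and were at 0.0864% to 0.953% of that level in LNCaP libraries, highest in androgen replicate 1. Epithelial markers (KRT8, KRT18, EPCAM, CDH1) summed to 450.2 to 458.8 CPM in PC3, 3435 to 3735 with androgen and 1270 to 1293 with vehicle. Summed fibroblast markers were 37.5 to 48.1 CPM in PC3, 12.3 to 15.4 with androgen and 22.6 to 25.8 with vehicle, with DCN at 3 counts or fewer. Leukocyte markers summed to at most 0.553 CPM. The part of these marker differences in the results below was not tested. In bulk RNA, fewer cells of a type and less RNA per cell cannot be told apart.

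Of the 45 members, 27 passed the filter for testing, which asked for more than 3 CPM in at least 3 libraries of a comparison, and the same number was tested in each of the 3 comparisons. Among the other 18, 10 had 0 counts in every library (TBC1D27P, TBC1D28, TBC1D3, TBC1D3B, TBC1D3C, TBC1D3D, TBC1D3E, TBC1D3G, TBC1D3H and TBC1D3K). With 3 counts taken as the limit of a zero in a library, their levels could still reach 0.118 to 0.165 CPM. A further 5 had at most 1 count in a library (TBC1D10C, TBC1D21, TBC1D26, TBC1D3I and TBC1D3J). TBC1D10C, known as Carabin in lymphocytes, was therefore near the floor in all groups. TBC1D26 has 60.0% of its 74-nt stretches not unique to it, counted as for the TBC1D3 copies below, so its low counts are uncertain. For TBC1D27P and TBC1D28 these shares were 74.3% and 38.15%, so their zeros are uncertain as well. The remaining 3 were counted below the filter. TBC1D7, the third subunit of the TSC complex that restrains mTORC1, had 5 to 25 counts. The table has a separate row for a readthrough gene that takes in TBC1D7, with 0 to 1 counts, and its effect on the counts of TBC1D7 was not tested. TBC1D3F had 5 to 25 counts and TBC1D3L 30 to 57. The TBC1D3 copies on chromosome 17 are near-identical. Of the 74-nt stretches of each annotated copy, 69.6% to 100% were not unique to it, and 53.0% to 100% were shared with another member. A stretch that repeats at any other genomic site was counted as not unique, as was one found in a different gene's transcripts. The zeros and low counts of the copies are therefore uncertain. Of their 10 matched promoter windows 9 were distinct, with those of TBC1D3 and TBC1D3L the same.

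The summed level of the family was 1374 to 1487 CPM in PC3, 1676 to 1733 CPM in LNCaP with androgen and 1387 to 1433 CPM with vehicle. The androgen libraries lay above all the others, while PC3 and vehicle overlapped. The 5 most counted members held 45.2% to 50.4% of the sum in each library. Levels between members were compared per kilobase (kb) of merged exon length. In PC3, TBC1D8 came first at 21.9 ± 0.68 CPM per kb (SD, n = 3), followed by TBC1D23 at 19.7 ± 0.75 and TBC1D5 at 15.1 ± 1.70, and the libraries of TBC1D8 and TBC1D23 did not overlap. TBC1D5 overlapped with the next member, TBC1D17 (14.05 ± 1.05). With androgen the order was TBC1D9B (21.3 ± 0.30), TBC1D1 (19.0 ± 1.19) and TBC1D14 (18.8 ± 0.05), of which the last pair overlapped. With vehicle it was TBC1D14 (21.9 ± 0.43), TBC1D9B (18.6 ± 0.46) and TBC1D16 (14.1 ± 0.67), with no overlap among them. By the longest transcript in place of merged exons, TBC1D9B took the third place in PC3, TBC1D17 in androgen-treated cells, and TBC1D9B passed TBC1D14 with vehicle.

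**Figure D1:**
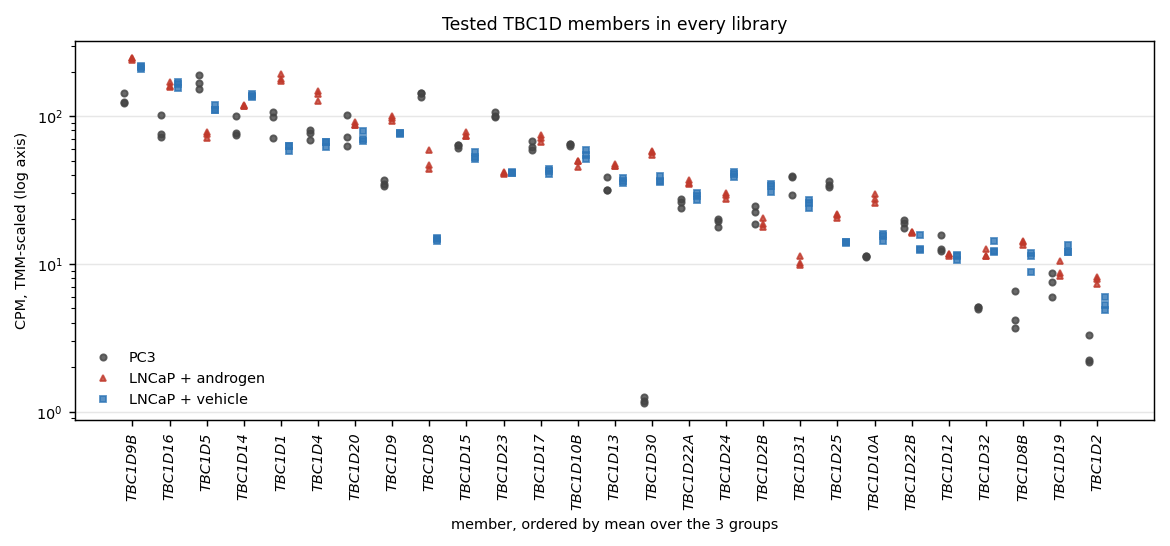
CPM on a log axis for the 27 tested members (horizontal, ordered by mean level), with 1 point per library: grey circles for PC3, red triangles for LNCaP with androgen and blue squares for LNCaP with vehicle, 3 each. TBC1D30 stands apart in PC3 at 1.15 to 1.26 CPM, and TBC1D8 has 3 levels that do not overlap.

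The design asks how the lines differ with androgen present in LNCaP, how they differ with vehicle, and what androgen changed in LNCaP. A gene was called at an adjusted p under 0.05 from edgeR with a fold change of at least 2. The comparisons share libraries, so a member's 3 values are not independent. Between PC3 and androgen-treated LNCaP, 10 of 27 members were called, where 46% of all 12541 genes tested were. Of these 10, 4 were higher in PC3 (24% of all genes) and 6 lower (22.1%), and 21 had an adjusted p under 0.05 at any fold (84%). Between PC3 and vehicle-treated LNCaP, 9 were called against 43.2% of 12686 genes, 3 higher (22.2%) and 6 lower (21%), with 24 under the p threshold alone (83.4%). Between androgen and vehicle in LNCaP, 4 were called against 14% of 11697 genes, 3 higher with androgen (6.54%) and 1 lower (7.49%), with 23 under the p threshold alone (74.9%), of which 16 were higher with androgen (37.1% of all genes) and 7 lower (37.8%). The shares of members called were 37%, 33.3% and 14.8%, in that order, each near or below the background share. Median log2 fold changes over the tested members were -0.45, -0.08 and 0.28, against 0.04, 0.03 and -0.01 over all genes. In all, 14 members were called in at least 1 comparison, 7 in both comparisons of the lines, and 1, TBC1D8, in all 3. Of the 11262 genes tested in all 3 comparisons, 49.7%, 29.3% and 4.29% were. The members are described below by role, and the counts called in these small groups stand beside the same shares of all genes.

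**Figure D2:**
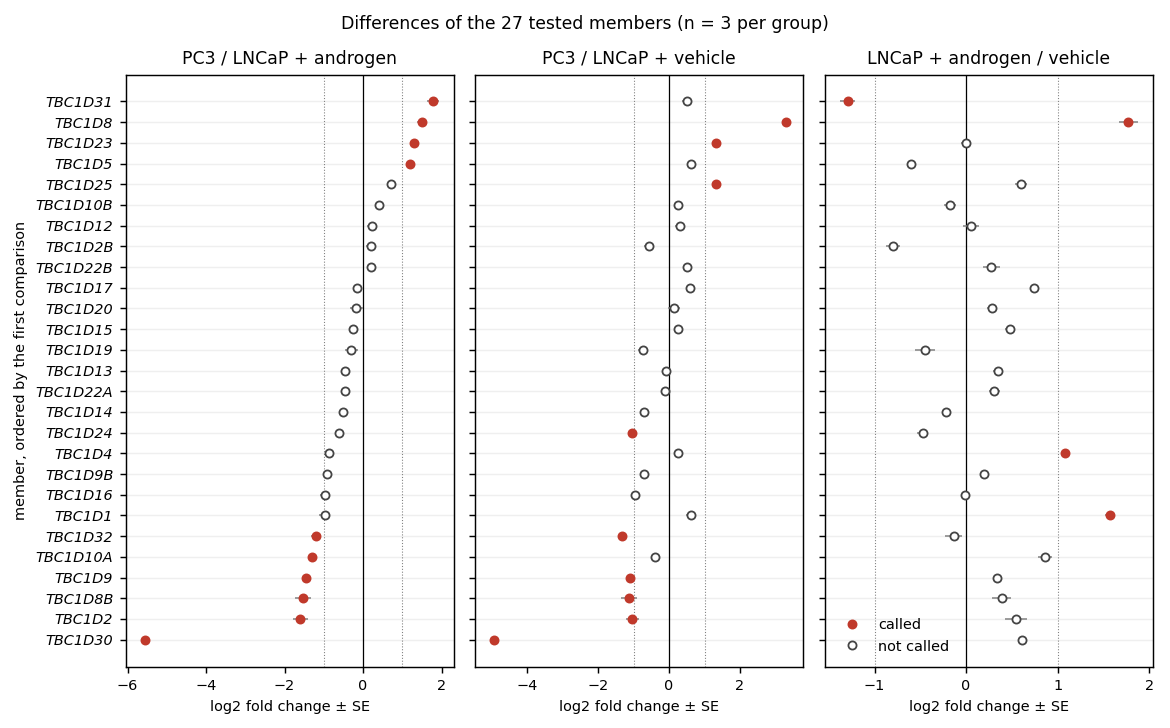
Log2 fold change with a standard error derived from the F statistic (horizontal) for the 27 tested members in the 3 comparisons, with n = 3 per group. Filled red points are called and open points are not, and dotted lines mark a fold change of 2. TBC1D30 lies farthest out in both comparisons of the lines, at -5.56 and -4.92, and TBC1D8 is filled in each panel.

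TBC1D1 and TBC1D4, the GAPs of glucose transporter vesicles, both rose with androgen. Both were called between androgen and vehicle, where 14% of all genes were. In the full fits neither was called between the lines, where 46% and 43.2% of all genes were. TBC1D1 (chr4:37891084-38139175) read 97.9, 106 and 71.1 CPM in PC3, 172, 178 and 194 CPM with androgen and 58.0, 62.6 and 62.7 CPM with vehicle. The 3 groups did not overlap, with androgen highest and vehicle lowest. It rose with androgen by a log2 fold change of 1.57 (SE 0.05, edgeR adjusted p = 1.65e-11). TBC1D4 (chr13:75283503-75482169) read 76.4, 80.8 and 69.4 CPM in PC3, 127, 147 and 141 with androgen and 62.1, 66.8 and 66.6 with vehicle. Here too PC3 lay between the LNCaP groups, close above vehicle. With androgen it rose by 1.09 on the log2 scale (SE 0.05, edgeR adjusted p = 1.08e-09). Because of this, the sign of the PC3 difference depended on the LNCaP group. TBC1D1 was -0.98 against androgen (edgeR adjusted p = 0.000367) and 0.61 against vehicle (adjusted p = 0.00521), both short of a fold of 2 in the full fits. Without PC3 replicate 1 or 2, TBC1D1 passed that fold against androgen, at -1.03 and -1.11. TBC1D4 was -0.87 against androgen and 0.24 against vehicle (edgeR adjusted p = 0.0228). The second p rose to between 0.0528 and 0.0830 without PC3 replicate 1 or 2 or any 1 vehicle library. TBC1D15 had opposite signs at -0.25 and 0.25 (edgeR adjusted p = 0.00334 and 0.00679), and TBC1D17, TBC1D20 and TBC1D2B changed sign without passing in both.

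**Figure D3:**
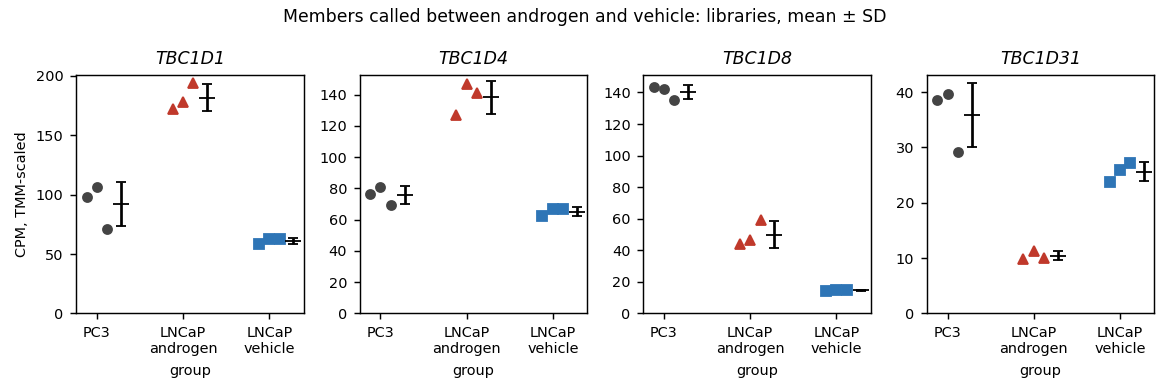
CPM on linear axes from 0 for the 4 members called between androgen and vehicle, with 1 point per library (PC3, LNCaP with androgen, LNCaP with vehicle, 3 each) and bars for mean ± SD. TBC1D1, TBC1D4 and TBC1D8 are higher with androgen than with vehicle in 3 of 3 libraries, and TBC1D31 is lower in 3 of 3.

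TBC1D8, TBC1D8B, TBC1D9 and TBC1D9B form a subfamily that carries GRAM domains before the TBC domain. Between PC3 and androgen-treated LNCaP 1 of the 4 was called higher and 2 lower, where 24% and 22.1% of all genes were. Against vehicle 1 was called higher in PC3 and 2 lower (22.2% and 21%), and with androgen 1 was called (14%). TBC1D8 (chr2:101007228-101252866) read 143, 142 and 135 CPM in PC3, 44.2, 46.4 and 59.5 CPM with androgen and 14.2, 14.7 and 14.9 CPM with vehicle. Each PC3 library exceeded each LNCaP library, and each androgen library exceeded each vehicle library. The log2 fold change was 3.29 for PC3 over vehicle (SE 0.07, edgeR adjusted p = 1.39e-08), 1.49 for PC3 over androgen (SE 0.11, edgeR adjusted p = 4.16e-06) and 1.77 for androgen over vehicle (SE 0.10, edgeR adjusted p = 4.53e-09). TBC1D8B (chrX:106802673-106876150), known to act with RAB11, went the other way between the lines. It read 4.18, 3.71 and 6.54 CPM in PC3, 14.3, 14.1 and 13.4 with androgen and 8.83, 11.9 and 11.3 with vehicle. PC3 was lowest, and androgen lay above vehicle without overlap. It was lower in PC3 by -1.53 (SE 0.20, edgeR adjusted p = 0.000154) and -1.12 (SE 0.22, edgeR adjusted p = 0.00174) against androgen and vehicle, and the second value was -0.98 without PC3 replicate 2, short of a fold of 2. Some 19.2% of the 74-nt stretches of TBC1D8B were not unique to it, by the same count as for the TBC1D3 copies, and 0% were shared with another member. TBC1D9 (chr4:140620782-140756385) read 33.9, 34.8 and 36.8 CPM in PC3, 92.6, 99.6 and 97.8 with androgen and 76.4, 75.9 and 77.2 with vehicle. It too was lowest in PC3, with log2 fold changes of -1.46 and -1.10 (edgeR adjusted p = 2.37e-07 and 9.94e-07). TBC1D9B (chr5:179862066-179907897), the most counted member in LNCaP, read 122, 124 and 144 CPM in PC3, 241, 247 and 248 with androgen and 209, 215 and 220 with vehicle. PC3 was lowest there as well, by less than a fold of 2 (-0.91 and -0.70, edgeR adjusted p = 6.71e-06 and 3.72e-05). Within the subfamily, TBC1D8 was therefore the only one of the 4 that was higher in PC3.

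Of the 6 members known from endosomes, lysosomes and the retromer, 2 were called in at least 1 comparison, where 49.7% of all genes were. TBC1D5, a RAB7 GAP that binds the retromer coat, lies at chr3:17157162-18444817 and is the gene of the fourth sequence above. It read 168, 152 and 190 CPM in PC3, 71.3, 77.8 and 75.2 with androgen and 110, 120 and 111 with vehicle. PC3 was highest and androgen lowest, with no overlap. The log2 fold change was 1.19 for PC3 over androgen (SE 0.08, edgeR adjusted p = 3.36e-06), 0.61 for PC3 over vehicle (SE 0.08, edgeR adjusted p = 0.000215) and -0.60 for androgen over vehicle (SE 0.05, edgeR adjusted p = 9.94e-08), and only the first reached a fold of 2. TBC1D2, or Armus, another RAB7 GAP, lies at chr9:98199011-98255649. Its levels were low, at 2.17, 2.22 and 3.33 CPM in PC3, 8.17, 7.92 and 7.33 with androgen and 5.99, 4.84 and 5.25 with vehicle. PC3 lay below both LNCaP groups, by -1.60 (SE 0.18, edgeR adjusted p = 6.92e-05) and -1.03 (SE 0.19, edgeR adjusted p = 0.00134). The second call was lost without PC3 replicate 1 (-0.93) or 2 (-0.95), without vehicle replicate 1 (-0.94) and with a filter of at least 10 counts in every library (-0.99). TBC1D16, a RAB4 GAP (chr17:79932343-80035872), read 72.6, 75.2 and 101 CPM in PC3, 160, 170 and 157 with androgen and 155, 171 and 165 with vehicle. It was lower in PC3 by -0.97 and -0.96, just under a fold of 2, and passed that fold in both comparisons without PC3 replicate 3, its highest PC3 library. Between androgen and vehicle its libraries overlapped (-0.01, SE 0.05). TBC1D15, TBC1D17 and TBC1D2B were not called. TBC1D2B was lower with androgen than with vehicle by -0.80 (edgeR adjusted p = 4.34e-07) and TBC1D17 higher by 0.75 (edgeR adjusted p = 3.24e-08).

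Among the 7 members of the endoplasmic reticulum, Golgi and autophagy, 2 were called in at least 1 comparison, where 49.7% of all genes were. Both were higher in PC3. TBC1D23 (chr3:100260992-100325251), which tethers endosome-derived vesicles to golgins at the trans-Golgi and lacks GAP activity, read 107, 101 and 99.0 CPM in PC3, 41.1, 40.7 and 42.0 with androgen and 41.2, 42.1 and 41.2 with vehicle. The LNCaP groups overlapped and PC3 stood above both. The log2 fold change was 1.31 and 1.33 against androgen and vehicle (SE 0.06 each, edgeR adjusted p = 4.11e-07 and 3.82e-07), and -0.01 between androgen and vehicle (SE 0.05, edgeR adjusted p = 0.928). TBC1D25 (chrX:48539714-48562609), a RAB33B GAP of autophagosomes, read 34.2, 33.2 and 36.6 CPM in PC3, 20.6, 21.7 and 21.4 with androgen and 13.9, 14.1 and 14.1 with vehicle. The 3 groups were apart, with PC3 highest and vehicle lowest. Against vehicle the log2 fold change was 1.33 (SE 0.07, edgeR adjusted p = 1.23e-06), and against androgen it was 0.71, under a fold of 2. TBC1D14 (chr4:6909242-7033118), which binds RAB11 on recycling endosomes and restrains autophagosome formation, read 76.6, 74.01 and 99.6 CPM in PC3, 118, 118 and 118 with androgen and 137, 140 and 135 with vehicle. It was lowest in PC3 without reaching a fold of 2 (-0.50 and -0.70). TBC1D12, TBC1D20, TBC1D22A and TBC1D22B had log2 fold changes between -0.45 and 0.50 in the 3 comparisons. TBC1D20, the RAB1 GAP of the endoplasmic reticulum, spread widest in PC3, at 72.2, 62.3 and 101 CPM. TBC1D22A, the gene of the last sequence above, was 0.31 higher with androgen (edgeR adjusted p = 0.000605).

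Of the RAB35 GAPs and plasma membrane members, 4 of 5 were tested and 2 were called, each in 1 comparison. Among all genes, 49.7% were called in at least 1. TBC1D10A (chr22:30291990-30326947), a RAB35 and RAB27A GAP also named EPI64, read 11.4, 11.2 and 11.3 CPM in PC3, 29.6, 27.6 and 25.9 with androgen and 15.9, 15.5 and 14.4 with vehicle. The groups did not overlap, and androgen was highest. It was lower in PC3 than with androgen by -1.29 (SE 0.10, edgeR adjusted p = 5.38e-06), lower than with vehicle by -0.41 (SE 0.09, edgeR adjusted p = 0.00322), and higher with androgen than vehicle by 0.86 (SE 0.08, edgeR adjusted p = 3.80e-07). TBC1D24 (chr16:2475051-2509560), known for its binding of ARF6 and its role in synaptic vesicle traffic, read 17.8, 19.4 and 20.01 CPM in PC3, 29.3, 30.0 and 27.5 with androgen and 38.8, 40.3 and 41.7 with vehicle. Vehicle was highest and PC3 lowest. Only the difference of PC3 from vehicle was called, at -1.06 (SE 0.08, edgeR adjusted p = 5.72e-06), beside -0.60 from androgen. TBC1D10B and TBC1D13 stayed within -0.45 and 0.41 in all 3 comparisons.

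The 3 members known from the cilium and centrosome were called between PC3 and androgen-treated LNCaP, where 46% of all genes were, and 2 of them against vehicle (43.2%). TBC1D30 (chr12:64759484-64881033), a RAB8 GAP that limits cilium formation, had 32, 27 and 29 counts in PC3, 1302, 1108 and 1129 with androgen and 694, 648 and 768 with vehicle. In CPM it was 1.26, 1.18 and 1.15 in PC3, 58.4, 54.8 and 57.0 with androgen and 36.5, 35.7 and 39.1 with vehicle. PC3 was far below LNCaP, by a log2 fold change of -5.56 (SE 0.10, a fold of 47.2, edgeR adjusted p = 1.21e-08) against androgen and -4.92 (SE 0.11, a fold of 30.3, edgeR adjusted p = 1.73e-08) against vehicle. Another annotated gene on the same strand overlaps 36.6% of its exon bases. TBC1D32, or BROMI, which works with the kinase CDK20 in the cilium, lies at chr6:121079494-121334745. It read 5.13, 4.97 and 5.07 CPM in PC3, 11.3, 12.6 and 11.3 with androgen and 12.1, 14.2 and 12.3 with vehicle. It was lower in PC3 by -1.21 and -1.32 (SE 0.11 each, edgeR adjusted p = 1.56e-05 and 1.04e-05), while the LNCaP groups overlapped. TBC1D31, a protein of centriolar satellites, went the other way. It read 38.6, 39.6 and 29.2 CPM in PC3, 9.87, 11.3 and 10.1 with androgen and 23.8, 25.9 and 27.2 with vehicle. PC3 was highest and androgen lowest, with no overlap. TBC1D31 fell with androgen by 1.29 on the log2 scale (SE 0.08, edgeR adjusted p = 1.36e-08). In PC3 it was 1.78 above androgen (SE 0.14, edgeR adjusted p = 8.62e-06) and 0.51 above vehicle (SE 0.13, edgeR adjusted p = 0.00798), so only the first was called. The last tested member, TBC1D19, whose substrate is little known, was not called and was lower with androgen by -0.45 (edgeR adjusted p = 0.00176).

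Ratios of counts within a library compare paralogs without any scaling between libraries, and are given as a description. TBC1D8 had 34.3, 38.4 and 20.7 times the counts of TBC1D8B in the PC3 libraries, 3.09, 3.29 and 4.42 times with androgen and 1.61, 1.23 and 1.33 times with vehicle. No 2 groups overlapped in this pair, and PC3 replicate 3 was the lowest of its group. TBC1D1 had 1.03 to 1.32 times the counts of TBC1D4 in PC3, 1.21 to 1.38 with androgen and 0.934 to 0.942 with vehicle. The vehicle libraries were the lowest in this ratio, and PC3 and androgen overlapped. The ratio of TBC1D2 to TBC1D2B was 0.386 to 0.440 with androgen, against 0.143 to 0.195 with vehicle and 0.0906 to 0.149 in PC3, and that of TBC1D10A to TBC1D10B was 0.519 to 0.606 with androgen, 0.265 to 0.305 with vehicle and 0.172 to 0.181 in PC3. In both of these pairs the androgen libraries were highest and did not overlap with the rest.

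**Figure D4:**
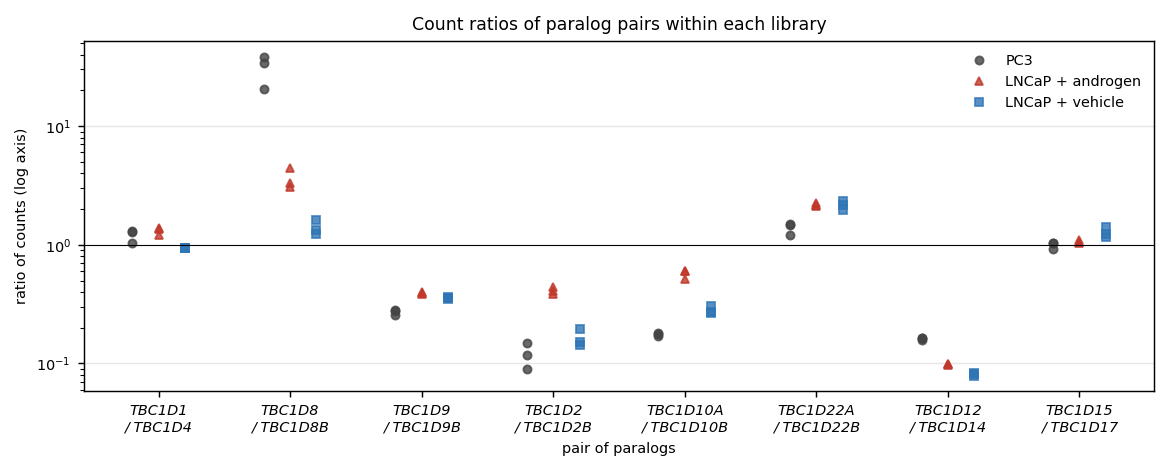
Ratio of the counts of 2 paralogs in the same library, on a log axis, for 8 pairs, with 1 point per library (3 per group). TBC1D8 over TBC1D8B spans from 1.23 in a vehicle library to 38.4 in a PC3 library, the widest range of the pairs.

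Genes that work with the family were read as lists. Among 11 TBC-domain genes with other names, 9 were tested between PC3 and androgen-treated LNCaP. Of these 2 were called, where 46% of all genes were, both lower in PC3 (22.1%): SGSM3 at -2.13 and GRTP1 at -2.90. Against vehicle these were -1.40 and -2.91, and SGSM1 was also lower at -1.99. That made 3 of 10 tested, where 43.2% of all genes were called and 21% called lower. Between androgen and vehicle 5 of the 10 had an edgeR adjusted p under 0.05 (74.9% of all genes), short of a fold of 2. Their median was -0.31 and -0.39 in the comparisons of the lines and -0.05 with androgen. Another gene on the same strand overlaps 62.4% of the exon bases of SGSM3.

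Of 17 Rabs that members act on or bind, all were tested. Against androgen, 5 were called, where 46% of all genes were. All were lower in PC3 (22.1% of all genes): RAB2A (-1.77), RAB4A (-1.83), RAB11A (-2.07), RAB27A (-1.39) and RAB5C. RAB22A was higher in PC3 by 0.98, short of a fold of 2, and passed it with at least 10 counts in every library (1.01) and without PC3 replicate 2 (1.04). Against vehicle, RAB5A (1.14) and RAB22A (1.31) were higher and RAB2A (-1.19), RAB11A (-1.44) and RAB5C lower. Of all genes, 22.2% were called higher and 21% lower there. RAB5C, an early endosome Rab, had 0 counts in each PC3 library, 4128 to 4806 with androgen and 3007 to 3180 with vehicle. At a floor of 3 counts per library it was at least 1619-fold lower in PC3 than with androgen and at least 1255-fold lower than with vehicle. With androgen, RAB4A, a recycling Rab and the substrate of TBC1D16, rose by 1.52 (edgeR adjusted p = 6.36e-12). RAB4A was the only one of the 17 called, where 14% of all genes were. At an adjusted p under 0.05 and any fold, 14 of the 17 Rabs were higher with androgen and 2 lower, where 37.1% of all genes were higher and 37.8% lower. The list's median was 0.33 with androgen, -0.16 for PC3 against androgen and -0.03 against vehicle.

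Among 12 partners that are no Rabs, VPS26B, a retromer subunit, read 107, 118 and 112 CPM in PC3, 312, 319 and 316 with androgen and 129, 127 and 122 with vehicle. Androgen stood above both other groups. It rose with androgen by 1.33 (SE 0.04, edgeR adjusted p = 5.65e-12) and was lower in PC3 than with androgen by -1.49. CDK20, the partner of TBC1D32, read 2.17, 2.09 and 2.18 CPM in PC3, 14.8, 15.2 and 14.7 with androgen and 17.2, 16.9 and 15.7 with vehicle. Like TBC1D32 it was lower in PC3, by -2.79 and -2.92 (edgeR adjusted p = 1.96e-07 and 1.57e-07). GOLGA4, a golgin that TBC1D23 binds, was higher in PC3 than with vehicle by 1.48. No other gene of this list was called. Against androgen-treated LNCaP, 2 of the 12 were called, where 46% of all genes were. Against vehicle 1 was called higher in PC3 and 1 lower, where 22.2% and 21% of all genes were. Between androgen and vehicle 1 was called, where 14% of all genes were. Of 11 genes of GLUT4 vesicle traffic, all were tested between the lines and 10 between androgen and vehicle. Against androgen 2 were called higher in PC3 and 2 lower (24% and 22.1% of all genes). Against vehicle 2 were called higher and 1 lower (22.2% and 21%), and with androgen 1 of the 10 was called (14%). These counts include 1 gene that is not reported here. PRKAA2, a catalytic AMPK subunit, was higher in PC3 by 1.26 and 1.66. PRKAA1, the other catalytic subunit, was lower in PC3 than with androgen by -1.20. SLC2A4, the transporter itself, had 2 to 7 counts in PC3, 310 to 375 with androgen and 83 to 101 with vehicle, and it rose with androgen by 1.74 (edgeR adjusted p = 5.11e-09).

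Nothing in the labels says that replicates came from separate cultures, so p-values measure only the spread between these libraries. The study lists a batch term whose batches are not named in the sources used here, and a batch that is shared within a group cannot be told apart from it.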

How the data were processed

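The authors' RNA was selected for poly(A), made into KAPA RNA HyperPrep libraries and read as 74-nt single ends. The submitters' processing notes name cutadapt 4.1, STAR 2.7.7a, UMI-tools 1.1.2 and the GRCh38 build. The supplementary methods of the study give other versions of cutadapt and STAR. The deposited counts are whole reads per gene. All 253944 values of the table equalled the forward-strand column of the deposited files for each library. In these files 20.3% to 25.4% of reads were not assigned to a gene, which need not mean that they lie outside the genes. Counts were tested here in R 4.3.3 with edgeR 4.0.16 (quasi-likelihood, TMM scaling, genes with more than 3 CPM in at least 3 libraries of a comparison, Benjamini-Hochberg over all genes), on the 6 libraries of each comparison. CPM use TMM over all 9 libraries. Each SE of a log2 fold change is its absolute value divided by the square root of the quasi-likelihood F statistic. The study's batch term was left out because its batches are not named.

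Members and lists were chosen with earlier results of these data known, so no list has a test of its own. Described in every library are the members called in at least 1 comparison, TBC1D1, TBC1D4 and the 3 highest per length in each group. List genes are named where called, except 1 that is not reported here. Gene positions, exon lengths and overlaps come from GENCODE 44 (44 of 45 members matched) and promoter windows from RefSeq. The statistics were tested on simulated data. Precision follows the depth of 17397706 to 25640325 counts, and the limit set by a count of 0 covers counting error only. Alternatives were DESeq2 1.42.0 and its size factors, a likelihood ratio test, other filters, all 9 libraries together, unstranded counts, leaving out each library, and a replicate block. Deviations from the group means of same-numbered LNCaP libraries correlated at 0.198 to 0.228 and those of different numbers at -0.234 to 0.0308. Deviations within a group sum to 0, so these correlations are not independent. The numbers may pair androgen with vehicle, and the main fits leave such a pairing out. Same-numbered PC3 libraries showed no such pattern with either LNCaP group (-0.137 to 0.0473).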

Additional observations from a re-analysis of the deposited data

Results flagged for a closer look

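TBC1D10B carried reads on the strand opposite to the gene, which the deposited gene table leaves out. Their share of all its reads averaged 7.04% with androgen (6.84%, 6.70% and 7.58%), above the vehicle controls at 5.42%, 5.61% and 5.59%. In PC3 the share was 4.94%, 3.36% and 3.84%. It was singled out because this share, which the comparisons do not use, lies above that of the control libraries. The level of these reads did not stand apart: scaled as the other counts, it was 3.63, 3.27 and 4.09 CPM with androgen and 3.36, 3.03 and 3.21 CPM with vehicle, which overlap, and the reads on the strand of the gene were lower with androgen, at -0.18 on the log2 scale. The annotated antisense genes CD2BP2-DT and ENSG00000274653 overlap 5.30% of its exon bases, and their part in the share was not tested.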

How the results depend on the processing

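The members called numbered 10, 9 and 4 for PC3 against androgen, PC3 against vehicle and androgen against vehicle. With the adjusted p alone and no limit on the fold they numbered 21, 24 and 23, by construction of the looser rule. Leaving out 1 library gave 10 to 11, 7 to 10 and 4 to 4. The fit with a replicate block changed no call of a member (10, 9 and 4), and the possible pairing by number concerns the LNCaP comparison only. The DESeq2 test, DESeq2 size factors, the likelihood ratio test, no filter and all 9 libraries in one fit gave the same counts, and a minimum of 10 counts in every library gave 10, 8 and 4. Unstranded counts gave 10, 10 and 4, with TBC1D10C gained against vehicle. In the counts kept by strand, 98.4% to 100% of the reads of TBC1D10C lay on the opposite strand. PPP1CA is annotated there over 3.70% of its exon bases, and the part of PPP1CA in the gained call was not tested. DESeq2 size factors moved the median of all genes by at most 0.01 on the log2 scale. The median over the tested members, 0.28 with androgen over vehicle, moved by at least its SD over the androgen libraries in 8 settings. It ranged there from 0.24 without vehicle replicate 3 to 0.33 without vehicle replicate 2. Between androgen and vehicle TBC1D23 stood at -0.01 and turned to 0.00071 with DESeq2 size factors, 0.00068 with the DESeq2 test, 0.014 without a filter and 0.0052 with the minimum of 10 counts. Leaving out 1 library gave it -0.016 to 0.0048, above 0 without androgen replicate 2 (0.0048) or vehicle replicate 2 (0.0041). Its libraries overlap, and none of these values was called. Depth limits the members with few counts, TBC1D30 in PC3 (27 to 32 counts) and TBC1D2 in PC3 most among those called.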
